A study of Mus musculus with 2 samples.

Results

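The microRNA (miRNA) genes inside introns of Htr2c, Trpm3 and Trpm1 were described in the neural tube of the mouse embryo. They are Mir1298, Mir448, Mir1264 and Mir1912 in Htr2c, Mir204 in Trpm3 and Mir211 in Trpm1, chosen by gene name and host gene with earlier results of these data known, and they make up 6 of the 1973 genes of the deposited tables. The 2 small RNA libraries came from neural tubes of healthy B6NCrl embryos at day 13.5, pooled over males and females, and are numbered 1 and 2 as biological replicates in the labels, each with its own tissue sample under a common donor entry. The labels give no treatment and no genotype beyond the strain, so there is 1 condition, and comparisons run between members or between the libraries. Differences between the libraries have 1 library on each side and therefore no p-value.

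An intronic miRNA is usually cut as a hairpin from the transcript of its host gene, trimmed to a short mature strand and loaded into Argonaute, where its seed (bases 2 to 8) selects target mRNAs. Htr2c encodes a serotonin receptor that is abundant in the choroid plexus, the epithelium that secretes cerebrospinal fluid, and is also made in neurons. Trpm3 and Trpm1 encode cation channels of the melastatin family, the first known from choroid plexus and retinal pigment epithelium, the second from melanocytes and retinal bipolar cells. These host patterns are background. The tables count miRNA genes only, so mRNA markers of the choroid plexus were not analysed here. The labels do not say whether choroid plexus was part of the dissected tissue, and the genes are called by their hosts.

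The mature sequences show which members could be mistaken for one another when short reads are assigned. All 6 genes matched the RefSeq table (GRCm38.p6), which gives both arms for Mir1298, Mir448, Mir204 and Mir211 and the 3′ arm for Mir1264 and Mir1912. They are written 5′ to 3′ with the seed in capitals, those of Htr2c first.
miR-1298-5p: uUCAUUCGgcuguccagaugua
miR-1298-3p: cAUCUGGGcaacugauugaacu
miR-448-5p: gAACAUCCugcauagugcugcc
miR-448-3p: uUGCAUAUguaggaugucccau
miR-1264-3p: cAAAUCUUauuugagcaccugu
miR-1912-3p: cACAGAACaugcagugagaacu
miR-204-5p: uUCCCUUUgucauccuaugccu
miR-204-3p: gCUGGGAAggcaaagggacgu
miR-211-5p: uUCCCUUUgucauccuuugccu
miR-211-3p: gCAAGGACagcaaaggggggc

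The 6 strands from Htr2c carry 6 different seeds, and none of these is found in another mature mouse miRNA of the table. In contrast, miR-204-5p and miR-211-5p share the seed UCCCUUU and are identical at 21 of 22 bases. The single difference is A17U, with miR-204-5p first and positions counted from its 5′ end. In all, 3 of the 10 member strands share a seed with a mature miRNA of another name, against 27.9% of the 1679 mature names in the table. The other sharers are Mir7670 (with miR-204-5p and miR-211-5p) and Mir7684 (with miR-204-3p), and both had 0 counts in each library.

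Apart from the pair of miR-204-5p and miR-211-5p, no member strand came closer than 5 mismatches to the hairpin of another gene of the table, on either strand. None of the 6 hairpins shares a stretch of 20 nt with another gene of the table. Of the 1894 genes with a hairpin in GENCODE M21, 907 do. Of the 371 genes that reached 10 counts in both libraries, 80 do. Sequence elsewhere in the genome was not searched. For reads of the 5′ arm, the split between Mir204 and Mir211 rests on 1 base. Their 3′ arms have 5 or more mismatches to any other hairpin. The deposited tables hold counts per gene and not reads. Which arm the Mir211 counts came from, and how many carry that base, was therefore not measured.

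All members lie on the plus strand, as do their hosts, and none overlaps an exon of its host in GENCODE M21 (GRCm38). Mir1912 (chrX:147009441-147009527), Mir1264 (chrX:147010601-147010686) and Mir1298 (chrX:147064905-147065002) lie in intron 3 of a Htr2c transcript of 7 exons, an intron of 85.3 kb. Where transcripts differ, the shortest intron that holds the gene is given. Mir448 (chrX:147158210-147158321) lies in intron 5, of 93.5 kb. Mir1912 and Mir1264 are neighbours with 1073 bp between them. Mir1298 starts 102 kb and Mir448 196 kb from the annotated start of Htr2c. Mir204 (chr19:22750605-22750672) lies 759 bp behind an exon of Trpm3 in an intron of 16.8 kb. Mir211 (chr7:64205806-64205911) lies 1212 bp behind an exon of Trpm1 in an intron of 3.68 kb.

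**Figure D1:**
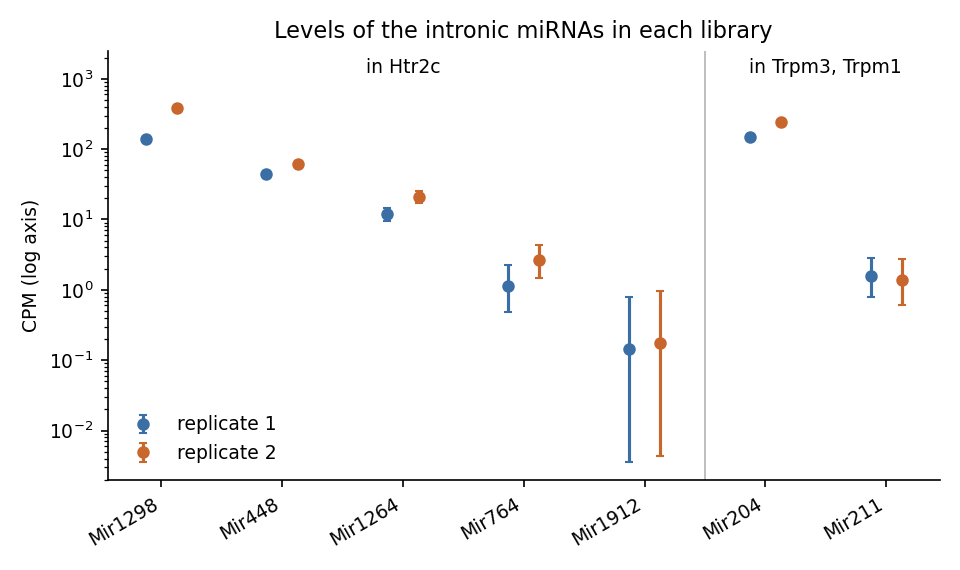
Level of each miRNA gene in each library, in CPM (log axis), with exact Poisson 95% intervals of the counts as bars. Mir764, another miRNA gene in Htr2c, is shown beside the members; Mir1298 and Mir204 are the highest and Mir1912 the lowest.

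The members formed a small part of the libraries, led by Mir1298 and Mir204. Levels are given as CPM, the same-strand counts of a gene scaled to 1000000 same-strand counts on all genes. The total was 7019469 in replicate 1 and 5738209 in replicate 2. Together the 6 genes held 2446 counts in replicate 1 and 4051 in replicate 2, or 0.0348% and 0.0706% of the totals. Mature miRNAs have similar lengths, so counts were not divided by length, but adapters join unequally to different miRNAs and a ratio of counts is not a ratio of molecules. In whole tissue, fewer cells of a type and less RNA per cell cannot be told apart.

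Of the 6 members, 4 had at least 10 counts in each library (Mir1298, Mir448, Mir1264 and Mir204), against 18.8% of all 1973 genes. Mir211 fell just short with 11 and 8 counts, and Mir1912 had 1 count in each library. All 6 had at least 1 count in each. No member had a count on the opposite strand in either library.

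Mir1298 had 990 counts (exact Poisson 95% interval 929 to 1054) in replicate 1 and 2184 (2093 to 2278) in replicate 2. These are 141 and 381 CPM, a mean of 261 ± 169 (SD, n = 2), rank 135 of all genes by mean CPM. The SD is large because the 2 libraries differ, and the counting intervals are far apart. Mir204 had 1053 counts (990 to 1119) in replicate 1 and 1389 (1317 to 1464) in replicate 2. These are 150 and 242 CPM, a mean of 196 ± 65.1 (SD, n = 2), rank 155. Mir1298 and Mir204 do not hold a fixed order. Mir1298 was at 0.94 times Mir204 in replicate 1 (exact 95% counting interval 0.861 to 1.03) and at 1.57 times in replicate 2 (1.47 to 1.68).

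Mir448 followed at 308 counts in replicate 1 and 349 in replicate 2, which are 43.9 and 60.8 CPM with a mean of 52.3 ± 12 (SD, n = 2), rank 218. Mir1264 had 83 counts and 120, which are 11.8 and 20.9 CPM with a mean of 16.4 ± 6.43 (SD, n = 2), rank 278. In both libraries Mir448 was below Mir204 and above Mir1264, and the ranges of these 3 genes do not overlap.

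Mir211 and Mir1912 were at the lower end of detection. Mir211 stood at 1.57 CPM in replicate 1 (11 counts, interval 5.49 to 19.7) and 1.39 in replicate 2 (8 counts, 3.45 to 15.8), rank 397. Mir1912 stood at 0.142 and 0.174 CPM, from 1 count each (0.0253 to 5.57). The counting intervals of each of these genes overlap between the libraries, and their levels cannot be separated by library at this depth. By mean CPM the order was Mir1298, Mir204, Mir448, Mir1264, Mir211 and Mir1912. Only Mir1298 and Mir204 exchange places between the libraries. The separate counting intervals of Mir211 and Mir1912 overlap in both libraries, which does not decide their order, and no interval of their ratio was computed.

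Outside the members, 2 more genes annotated as miRNA genes lie in Htr2c. Mir764, in the same intron as Mir1298 and 7074 bp before Mir1912, had 8 and 15 counts, or 1.14 and 2.61 CPM. The predicted gene Gm24627, between Mir1298 and Mir448, had 0 counts in both libraries. That allows a level of up to 0.427 CPM in replicate 1 and 0.523 CPM in replicate 2, taking 3 counts as the limit. Gm24627 was added after its values were seen.

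**Figure D2:**
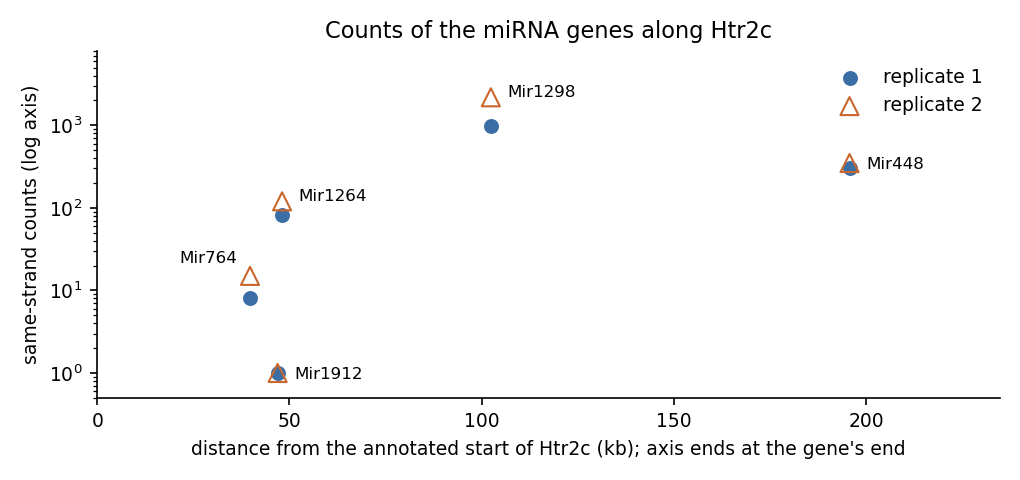
Same-strand counts (log axis) of the named miRNA genes of Htr2c against the distance of each gene from the annotated start of Htr2c (kb), with replicate 1 as dots and replicate 2 as triangles. The adjacent genes Mir1912 and Mir1264 stand at 1 count and at 83 to 120 counts, and the highest counts lie at Mir1298, in the same intron.

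Genes in 1 intron of 1 host gave unequal counts. Mir1264 had 83 counts for the 1 count of Mir1912 in replicate 1 (ratio 83, exact 95% counting interval 14.5 to 3317) and 120 for 1 in replicate 2 (ratio 120, 21.1 to 4779). Both genes lie within the same intron and only 1073 bp apart. Mir1298, in the same intron, was above Mir1264 by a log2 ratio of 3.57 in replicate 1 and 4.18 in replicate 2, on average 3.87 ± 0.43 (SD, n = 2) or 14.7-fold. Against Mir1912 the log2 ratio of Mir1298 was 9.94 ± 0.81, which rests on 1 count of Mir1912 per library. Mir1298 exceeded Mir448, which lies in a later intron, by 1.68 and 2.64, a mean of 2.16 ± 0.68 or 4.48-fold. In both libraries the counts followed the order Mir1298, Mir448, Mir1264, Mir764, Mir1912. The last step rests on few counts. In replicate 1 the separate counting intervals of Mir764 (3.45 to 15.8) and Mir1912 (0.0253 to 5.57) overlap. Such an overlap does not decide the order, and no interval of the ratio of Mir764 to Mir1912 was computed. Along the transcript the order of the genes is another, Mir764, Mir1912, Mir1264, Mir1298, Mir448.

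The hairpins of these 3 neighbours in intron 3 are shown because the counts differ most between them, with the mature strands of RefSeq in capitals in the M21 hairpin sequence.
Mir1298: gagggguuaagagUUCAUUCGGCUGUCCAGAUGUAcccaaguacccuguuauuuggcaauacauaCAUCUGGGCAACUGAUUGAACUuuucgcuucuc
Mir1264: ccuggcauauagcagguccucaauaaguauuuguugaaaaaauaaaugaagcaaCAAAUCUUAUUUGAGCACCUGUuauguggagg
Mir1912: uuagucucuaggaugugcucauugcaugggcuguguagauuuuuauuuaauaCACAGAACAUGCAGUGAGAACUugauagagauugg

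Predicted folding energies are given beside the counts, and their part in the counts was not tested. RNAfold gave -46.3 kcal/mol for Mir1298 (98 nt), -34.3 for Mir1264 (86 nt) and -41.1 for Mir1912 (87 nt). Mir764, in the same intron, was at -49.6 (108 nt). Per nucleotide, Mir1298 and Mir1912 were alike at -0.47, and Mir1264 was less stable at -0.40. The median was -0.43 over the 371 genes that reached 10 counts in both libraries. The GC content of Mir1264 (36.1%) and Mir1912 (37.9%) was below that of Mir1298 (44.9%), Mir448 (52.7%), Mir204 (48.5%) and Mir211 (57.6%), and the median of the 371 genes was 50.0%.

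**Figure D3:**
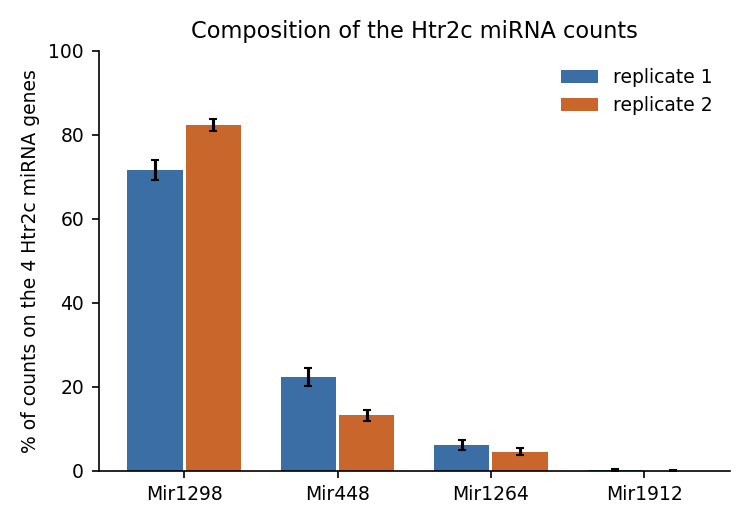
Share of each gene (%, axis from 0) in the counts of the 4 Htr2c members, for each library, with Wilson 95% intervals as bars. Mir1298 holds 71.6% in replicate 1 and 82.3% in replicate 2, and Mir448 22.3% and 13.2%.

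The make-up of the Htr2c counts differed between the libraries beyond counting error. Of the 1382 counts on the 4 Htr2c members in replicate 1, Mir1298 held 71.6% (Wilson 95% interval 69.2 to 73.9). Of the 2654 counts in replicate 2 it held 82.3% (80.8 to 83.7). Mir448 held 22.3% (20.2 to 24.6) in replicate 1 and 13.2% (11.9 to 14.5) in replicate 2. For both genes the intervals of the 2 libraries are apart. Mir1264 held 6.01% (4.87 to 7.38) and 4.52% (3.79 to 5.38), which overlap. The genes share a host, and yet the ratio of Mir1298 to Mir448 was 3.21 (2.83 to 3.66) in replicate 1 and 6.26 (5.59 to 7.03) in replicate 2. These intervals cover counting error of 2 libraries only.

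Mir204 far exceeded Mir211, its paralog in sequence. The ratio of counts was 95.7 (exact 95% counting interval 53.3 to 192) in replicate 1 and 174 (87.9 to 403) in replicate 2, a mean log2 ratio of 6.94 ± 0.59 (SD, n = 2). Mir211 thus made up 1.03% (Wilson 95% interval 0.578 to 1.84) and 0.573% (0.290 to 1.13) of the counts of the pair. The hairpins are shown to place the shared strand, again with the mature strands in capitals.
Mir204: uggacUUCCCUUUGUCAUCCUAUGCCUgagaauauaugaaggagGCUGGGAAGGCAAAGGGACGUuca
Mir211: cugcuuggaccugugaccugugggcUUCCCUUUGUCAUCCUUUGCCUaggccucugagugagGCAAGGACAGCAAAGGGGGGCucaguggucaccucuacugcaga

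The summed Htr2c members stood above Mir204 plus Mir211 in both libraries, by a log2 ratio of 0.38 in replicate 1 (exact 95% counting interval 0.26 to 0.49) and 0.93 in replicate 2 (0.83 to 1.02). The mean was 0.65 ± 0.39 (SD, n = 2), or 1.57-fold.

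**Figure D4:**
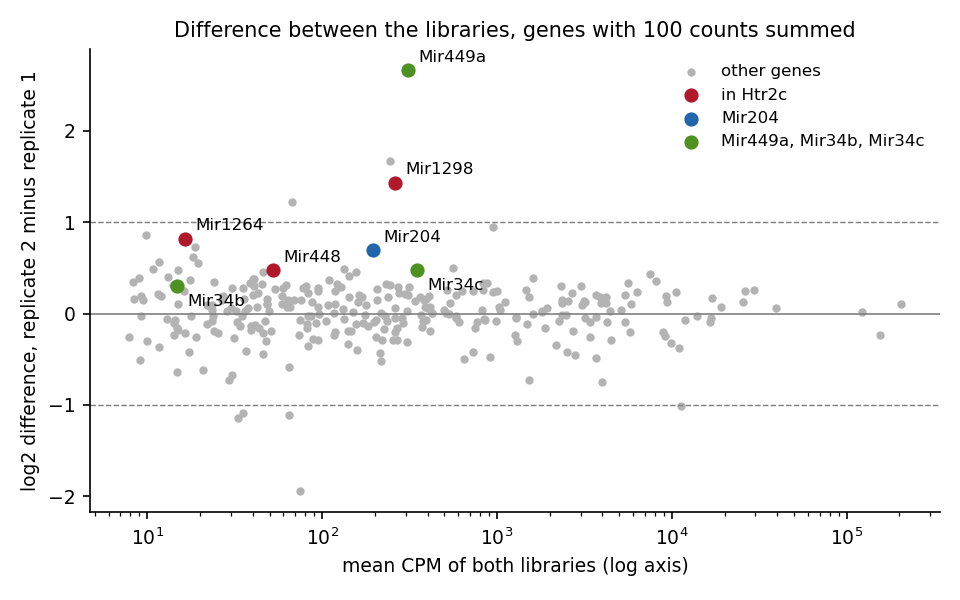
Log2 difference in CPM between the libraries (replicate 2 minus replicate 1) against mean CPM (log axis) for the 306 genes with at least 100 counts summed, with dashed lines at 2-fold. Red and blue points are the members that reach this count, and green points are Mir449a, Mir34b and Mir34c; all lie above 0.

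The members that could be compared were higher in replicate 2. The comparison took the 306 genes with at least 100 counts over both libraries, of which 4 are members, while Mir211 and Mir1912 have too few counts. Mir1298 differed by a log2 of 1.43 (exact 95% counting interval 1.32 to 1.54), or 2.70-fold. Mir1264 differed by 0.82 (0.41 to 1.24), or 1.77-fold. Mir204 differed by 0.69 (0.57 to 0.81), or 1.61-fold, and Mir448 by 0.47 (0.25 to 0.70), or 1.39-fold. None of these 4 intervals reaches 0. The other 2 members were not separable, with Mir211 at -0.15 (-1.69 to 1.28) and Mir1912 at 0.29 (-6.0 to 6.59).

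Read against all genes, 4 of these 4 members were higher in replicate 2, where 55.9% of the 306 genes were. One of them, Mir1298, was higher by more than 2-fold, a size that 1.31% of the genes reached, and none was lower by more than 2-fold, as 1.63% of the genes were. The median log2 difference of the 4 was 0.76, and that of the 306 genes 0.039. By size of the difference upwards, Mir1298 ranked 3, Mir1264 7, Mir204 9 and Mir448 18 of 306. Of the 4, 3 lie in the same host gene and cannot be taken as independent observations.

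Genes of similar level give the spread to read these differences against. Of the 71 other genes within 2-fold of the mean CPM of Mir1298, the central 95% lay between -0.41 and 0.93, and 2 differed by more than Mir1298 in either direction. For Mir1264 it was 1 of 55 genes, for Mir204 3 of 70, and for Mir448 8 of 74. Mir448 therefore differs least clearly from its neighbours in level.

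Summed, the Htr2c members had a log2 difference of 1.23 (1.14 to 1.33) between the libraries. This rests on Mir1298, and without it the sum of the other 3 differed by 0.55 (0.36 to 0.75). Mir204 plus Mir211 differed by 0.68 (0.57 to 0.80). Htr2c lies on the X chromosome and the embryos were of both sexes, in proportions that the labels do not give. The 34 other X-linked genes with at least 100 counts had a median difference of 0.047, with 20 of 34 higher in replicate 2 and none by more than 2-fold. The part of the sex of the pooled embryos in the difference was not tested.

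The genes with a difference nearest to that of the summed Htr2c members were Mir205 at 1.22, Mir214 at 0.95 and Mir499 at 0.86. Likeness here is the distance of a single log2 value over 2 libraries. Mir205 is a miRNA of stratified epithelia, Mir214 is made in mesenchyme, and Mir499 lies in a myosin gene of muscle. Mir208b, another miRNA of a myosin gene, named after its values were seen, was lower in replicate 2, at 48.2 and 22.7 CPM (log2 difference -1.08).

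Of the listed miRNAs of multiciliated cells and choroid plexus epithelium, Mir449a and Mir34c were higher in replicate 2 beyond counting error. The Mir449 and Mir34 genes share a seed type and act in the formation of motile cilia, which choroid plexus epithelium carries. The summed level of the 5 listed genes was 386 CPM in the first library and 952 in the second, which is 1.30 on the log2 scale. Mir449a stood at 84.1 and 532 CPM, which differ by 2.66 on the log2 scale (95% counting interval 2.53 to 2.79), and Mir34c at 289 and 403 CPM, a difference of 0.48 (0.39 to 0.57). Mir34b, at 13.2 and 16.4 CPM, was not separable at 0.31 (-0.12 to 0.74). Mir449b had 0 and 5 counts and Mir449c 2 and 0. Without Mir449a the other 4 genes of the list summed to 302 and 420 CPM, or 0.47 on the log2 scale. The part of these cells in the differences of the members was not tested.

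The lists for other cell types did not all move alike. The neuronal genes Mir137, Mir138-1 and Mir153 all had counts in both libraries and summed to 6292 and 6216 CPM. Most of that sum is Mir137 (5025 and 5168 CPM), while Mir138-1 was lower in replicate 2, at 760 and 539 CPM (log2 difference -0.49, interval -0.56 to -0.43). The mesenchymal list summed to 8466 and 10445 CPM, with 4 of its 5 genes higher, among them Mir199a-2 at 0.37 with an interval that includes 0 (-0.024 to 0.76). The surface epithelial list summed to 607 and 865 CPM, most of it Mir203 (466 and 659 CPM). Its largest log2 difference was that of Mir205, 1.22 (40.2 and 93.4 CPM). Of its 5 genes of 100 counts, 4 were higher, among them Mir200c at 0.065 (-0.23 to 0.36), and Mir200b was at -0.15 (-0.59 to 0.27). Beside these counts stand the 55.9% of all 306 genes that were higher in replicate 2. The 3 muscle genes in the table summed to 119 and 378 CPM, nearly all from Mir206. Mir133b had 7 and 29 counts (log2 difference 2.27, interval 1.12 to 3.78), and Mir1a-1 had 3 and 0. The endothelial Mir126a was at 17134 and 16019 CPM.

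Lower in replicate 2 were the pigment, lens and retina list (31800 and 20101 CPM, carried by Mir182, Mir183 and Mir96) and the liver gene Mir122 (118 and 30.7 CPM). The red cell pair Mir451a and Mir144 summed to 62.8 and 35.6 CPM. That fall was carried by Mir451a (log2 difference -1.14, interval -1.47 to -0.84). Mir144 was at -0.22 with an interval that includes 0 (-0.63 to 0.19). Mir182, Mir183 and Mir96 form a single cluster known from sensory organs and are not independent observations, and the lens gene Mir184 of the same list had 6 and 5 counts. With 1 condition and 2 libraries, a difference in the members and a difference in the tissue collected cannot be told apart. The part of these other cell types in the result was not tested.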

How the data were processed

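Small RNA was sequenced from 2 libraries of neural tube. The authors deposited raw counts per gene for each library, on mm10 with annotation M4 per the file headers, while the aligner was not given in the sources used here. Every table has 3 count columns. The middle one was taken for same-strand counts, as inferred from its totals, and 4 lines of unassigned reads were left out. These held 48.9% and 46.3% of the reads, of which multimapping reads were 28.5% and 31.0%. Names, hosts and coordinates came from GENCODE M21 (1894 of 1973 identifiers matched), and mature sequences from RefSeq.

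CPM used the same-strand total on genes. Replicate differences are log2 ratios with a pseudocount of 0.5, scaled to that total, with exact conditional 95% intervals. Without molecular identifiers, reads are not independent molecules, so all intervals and limits cover counting error only. Whether the replicates came from separate litters is not stated, so their spread may be partly technical. TMM factors (edgeR 4.0.16) and size factors (DESeq2 1.42.0, R 4.3.3) were alternatives. Other steps used Python 3.11.15, scipy 1.17.1 and RNAfold 2.7.2. The difference and its interval were tested on simulated Poisson counts without variation between replicates. The interval assumes that same setting, so the simulation says nothing on the spread of real replicates.

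The members and lists were chosen with earlier results of these data known. The text names the members, Mir764, the marker lists, genes that share a seed, and the 3 genes nearest in replicate difference to the summed Htr2c members. Mir1a-2 of the muscle list is not analysed here. The ratios of Mir1298 to Mir204 and of Mir1264 to Mir1912, the folding energies and the comparison with genes of similar level were added after the data were seen.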

Additional observations from a re-analysis of the deposited data

How the results depend on the processing

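Over 25 results, 95 alternative values were computed, some of which had little or no room to move. The Mir1912 difference, from 1 count in each library, is 0.29 at any pseudocount. For member levels and differences, unstranded counts change only the totals. Staying the same in these cases says nothing on stability. Of these, 88 stayed within the SD of the libraries, the counting interval or 1.5 times the count, 7 moved further and 0 reversed direction. Without the most abundant gene (Mir10a) in the total, Mir448 stood at 65.9 CPM, Mir211 at 1.86 and Mir1912 at 0.199, since the total is smaller. The other members rose likewise, Mir1298 to 329 CPM, Mir204 to 247 and Mir1264 to 20.6. These stayed within the SD of the libraries only because it is wide relative to their levels. With a pseudocount of 5, the log2 ratio of Mir1298 to Mir1912 was 7.94 in place of 9.94, as Mir1912 has 1 count per library. With at least 20 counts summed, 12 of 393 genes were higher and 9 lower past 2-fold, in place of 4 and 5 of 306, and with at least 1000 counts 2 of 200 were lower. Another 32 values could not move and say nothing on stability: leaving out a replicate gives the value of the other library, always within the SD of 2, and unstranded counts leave the ratios and detection as they are, since no member has opposite-strand counts. For Mir1298 the single libraries gave 141 and 381 CPM. The total without Mir10a for replicate differences and the Htr2c sum without Mir1298 were chosen after seeing the data. No paired analysis was possible because there is 1 group. Depth limits Mir211, Mir1912 and Mir764, whose counts in the 2 libraries could not be separated.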
